A study of Populus ussuriensis with 12 samples.

Results

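The secondary wall cellulose synthases of poplar were followed in roots through 5 transcripts: CesA4 (Potri.002G257900), CesA7-A (Potri.006G181900), CesA7-B (Potri.018G103900), CesA8-A (Potri.011G069600) and CesA8-B (Potri.004G059600). They were taken by ID, and all 5 were found among the 34699 gene IDs of the expression table. The RNA came from roots of Populus ussuriensis, a poplar propagated clonally in vitro, after 3 weeks on the N media. There were 4 groups of 3 libraries: PuHox52-OE plants at low N, WT plants at low N, PuHox52-OE plants at normal N and WT plants at normal N. PuHox52-OE plants overexpress PuHox52 (OE below), WT plants are the wild type, and all plants had first spent 6 days on woody plant medium. The promoter of the transgene, the number of transgenic lines and the number of plants behind a library are not stated in the labels. The design text calls the libraries biological replicates.

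Cellulose synthases sit in the plasma membrane and make glucan chains from UDP-glucose. In Arabidopsis the primary wall of growing cells is made with one set of subunits, and the thick secondary wall of xylem vessels and fibres with another, CESA4, CESA7 and CESA8. Those 3 subunit types are not interchangeable there: loss of any one leaves collapsed, cellulose-poor xylem. Poplar keeps 1 CesA4 gene among the 5 and a pair of copies each of CesA7 and CesA8. In a wood-forming plant these transcripts are known as markers of cells that are laying down secondary wall. In bulk roots, fewer such cells and less transcript in each cell cannot be told apart.

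Expression was deposited as FPKM, the fragments of a gene divided by its length and by the mapped fragments of the library, so levels of different genes can be set side by side. Between 22119 and 23646 IDs reached 1 FPKM in a library. Steps in the low FPKM values gave a relative depth of 0.447 to 0.501 in the low-N libraries and 1 to 1.22 in the normal-N libraries, with WT, normal N, replicate 1 as 1. Absolute depth is unknown, and no counting intervals are given. Neither the row of the overexpressed gene nor any root marker is annotated in the table, so the labels were not checked against them.

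All 5 transcripts were lower in OE than in WT roots at normal N, without overlap of the libraries. CesA4, the subunit with 1 gene among the 5 and the most abundant of them, had 9.67, 10.9 and 11.9 FPKM in OE roots, against 20.2, 15.7 and 19.4 FPKM in WT roots. For CesA7-A the values were 3.34, 4.16 and 4.23 FPKM in OE roots and 8.48, 7.29 and 8.85 FPKM in WT roots. Its paralog CesA7-B had 4.01, 4.42 and 4.69 FPKM in OE roots and 8.46, 7.91 and 8.72 FPKM in WT roots. For each of these 3 genes the highest OE library lay below the lowest WT library, and the CesA7 copies were nearly equal in level. CesA8-A, the weakest of the 5, had 1.58, 2.11 and 2.35 FPKM in OE roots, against 4.93, 3.88 and 4.49 FPKM in WT roots. CesA8-B had 3.10, 3.57 and 3.86 FPKM in OE roots, against 7.52, 7.04 and 8.71 FPKM in WT roots. The groups of these 2 genes did not overlap either. Of all 24570 tested genes, 33.3% had every OE library below every WT library.

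**Figure D1:**
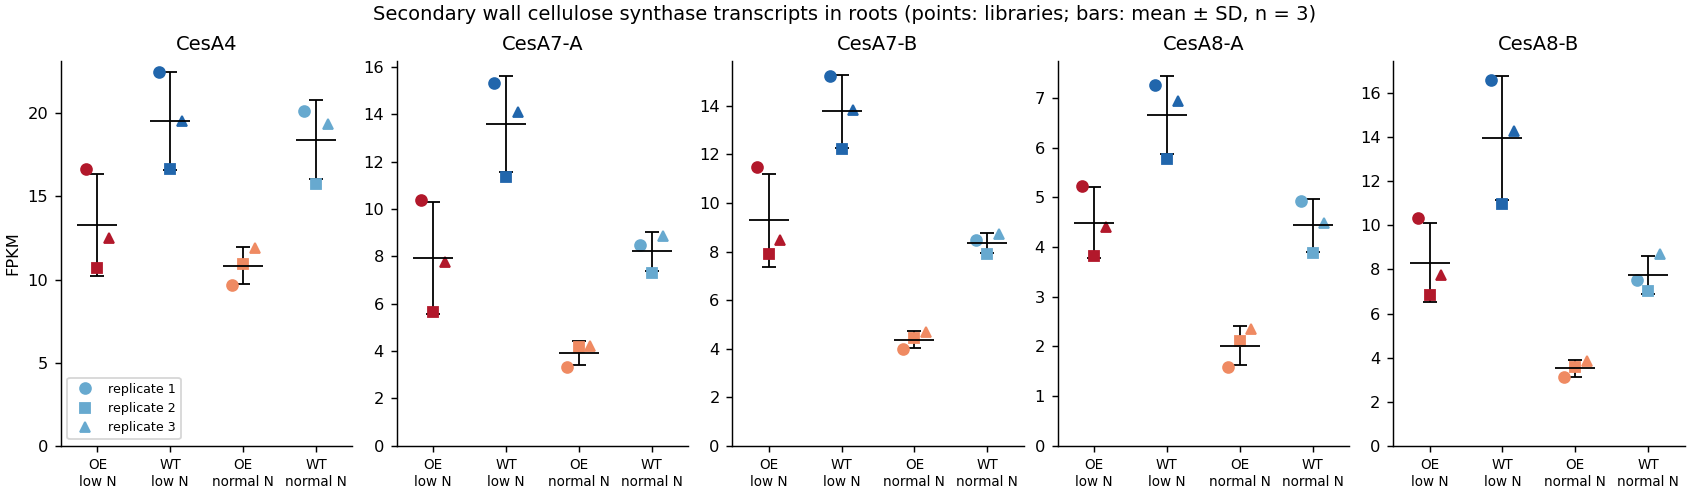
FPKM of each gene in every library, by group; symbols mark the replicate number, and horizontal bars with whiskers the mean ± SD (n = 3). In every panel OE at normal N has the lowest mean and WT at low N the highest. The OE libraries at normal N run from 1.58 to 2.35 FPKM for CesA8-A, and for CesA4 they overlap those of OE at low N.

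The mean level in WT roots was 1.70-fold that in OE roots for CesA4, 2.10-fold for CesA7-A, 1.91-fold for CesA7-B, 2.20-fold for CesA8-A and 2.21-fold for CesA8-B. Measured as log2(FPKM + 1), a scale on which weak genes appear to change less than they do, the difference of OE minus WT was -0.71 ± 0.153 (SE) for CesA4 and -0.96 ± 0.154 for CesA8-B, the smallest and the largest of the 5. The limma adjusted p was 0.00575 for CesA4, 0.00247 for CesA7-A, 0.000499 for CesA7-B, 0.000623 for CesA8-A and 0.000882 for CesA8-B (Benjamini-Hochberg over all tested genes). All 5 of 5 were thus called lower at an adjusted p under 0.05, where 17.3% of all tested genes were called lower. Their median log2 difference was -0.85, beside -0.082 over all tested genes. Between 2.36% and 4.44% of the tested genes had a lower log2 difference than a given one of the 5. Each of the 5 stayed called without any 1 library, with the largest adjusted p, 0.0286 in limma, for CesA4. They also stayed called when the columns were rescaled. Over all genes, 27.5% of the calls were higher in OE roots as deposited, 58.4% once scaled by median of ratios and 52.2% once quantile normalized.

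The difference between genotypes was seen again at low N, in libraries that share no sample with the first comparison. The limma tests of both comparisons nevertheless took their spread from all 12 libraries. CesA4 had 16.7, 10.7 and 12.5 FPKM in OE roots, against 22.5, 16.6 and 19.5 FPKM in WT roots. The highest OE library and the lowest WT library of CesA4 overlapped slightly, at 16.7 FPKM in OE roots and 16.6 FPKM in WT roots. CesA7-A had 10.4, 5.67 and 7.78 FPKM in OE roots, against 15.3, 11.3 and 14.1 FPKM in WT roots. CesA7-B had 11.5, 7.89 and 8.48 FPKM in OE roots, against 15.2, 12.2 and 13.8 FPKM in WT roots. Both CesA7 copies were without overlap, and the copies were again close in level in WT roots. CesA8-A had 5.23, 3.81 and 4.41 FPKM in OE roots, against 7.26, 5.76 and 6.94 FPKM in WT roots. CesA8-B had 10.3, 6.83 and 7.77 FPKM in OE roots, against 16.6, 10.99 and 14.3 FPKM in WT roots. Neither CesA8 copy overlapped between the genotypes, so that 4 of the 5 genes lay apart, as did 33.7% of all tested genes in this direction.

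At low N the mean in WT roots was 1.47-fold that in OE roots for CesA4, 1.71-fold for CesA7-A, 1.48-fold for CesA7-B and CesA8-A, and 1.68-fold for CesA8-B. Log2 differences of OE minus WT ran from -0.73 ± 0.169 (SE) for CesA7-A to -0.48 ± 0.132 for CesA8-A. All 5 of 5 were called lower, where 30.3% of all tested genes were. The limma adjusted p was 0.0119 for CesA4, 0.0035 for CesA7-A, 0.00253 for CesA7-B, 0.00866 for CesA8-A and 0.0027 for CesA8-B. Fitted on the low-N libraries alone, all 5 stayed called, with limma adjusted p from 0.022 for CesA8-B to 0.0418 for CesA4. The median of the 5 was -0.54, beside -0.098 over all tested genes, and 7.24% to 14.5% of the tested genes had a lower difference than a given one of them. The call of CesA4 rested on single libraries: it was lost without OE, low N, replicate 2 (-0.40, limma adjusted p = 0.0505) and without WT, low N, replicate 1 (-0.43, limma adjusted p = 0.0517). Of all calls at low N, 36.8% were higher in OE roots as deposited, 51.6% once scaled by median of ratios and 44.7% once quantile normalized, and the 5 genes were called lower in each case. Called lower at both N supplies were all 5 genes and 6.3% of the tested genes.

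Whether the OE effect depended on N supply was tested by the interaction, which subtracts the OE effect at normal N from the one at low N. None of the 5 passed, where 35.9% of all tested genes did. The lowest unadjusted p was 0.0686, for CesA8-A (limma). With a pseudocount of 0.1, CesA8-A had an interaction of 0.55 ± 0.236 (SE), an unadjusted p of 0.0375 and a limma adjusted p of 0.0903. The unadjusted limma p of CesA8-A was also 0.0486 with weights per library and as low as 0.0313 with a library left out, without OE, low N, replicate 2, where that of CesA7-B was 0.0469. Unadjusted p-values under 0.05 are common in this test, as 35.9% of all tested genes passed even once adjusted. On the log2(FPKM + 1) scale the estimates ran from 0.18 for CesA4 and CesA7-A to 0.37 ± 0.186 (SE) for CesA8-A, whose limma adjusted p was 0.142. They moved with single libraries: without OE, low N, replicate 1 they were 0.011 for CesA4, -0.014 for CesA7-A, 0.12 for CesA7-B and CesA8-B and 0.27 for CesA8-A. Without OE, low N, replicate 2 they were 0.31 for CesA4 and 0.37 for CesA7-A, and without WT, low N, replicate 2 they were 0.070 for CesA4, 0.061 for CesA7-A and 0.12 for CesA8-B. Their 95% intervals were wide, from -0.29 to 0.65 for CesA4 and from -0.033 to 0.77 for CesA8-A.

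**Figure D2:**
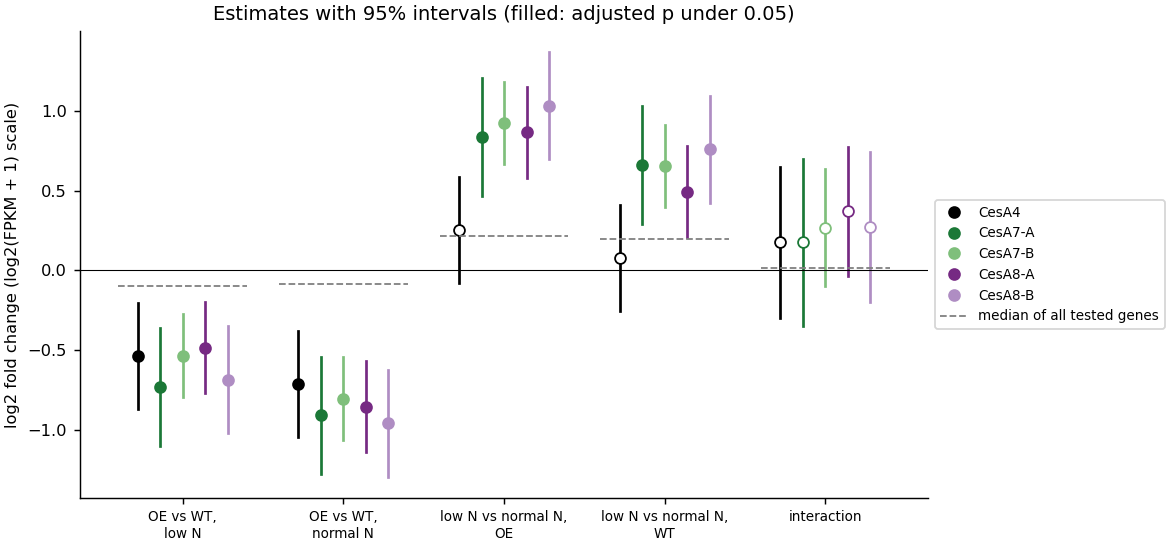
Log2 fold changes on the log2(FPKM + 1) scale with 95% intervals from limma for the 5 genes in 5 comparisons; filled points passed an adjusted p under 0.05, and dashed lines show the median of all 24570 tested genes. OE against WT lies below 0 for all 5 genes at both N supplies, while low N against normal N lies above the dashed line for 4 genes in both genotypes and near it for CesA4.

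Between low N and normal N, both copies of CesA7 and CesA8 were higher at low N in OE and in WT roots, and CesA4 did not pass the test in either. Low N and a library batch cannot be told apart in this comparison: the labels name 2 sequencing companies and do not say which made which library, and depth differed by N supply. In OE roots, CesA4 averaged 13.3 ± 3.07 FPKM at low N and 10.8 ± 1.13 FPKM at normal N (SD, n = 3 each). In WT roots it averaged 19.6 ± 2.94 FPKM at low N and 18.4 ± 2.37 FPKM at normal N. The libraries of both N supplies overlapped in each genotype. The log2 difference was 0.25 in OE roots (95% interval -0.078 to 0.59, limma adjusted p = 0.155) and 0.079 in WT roots (-0.25 to 0.41, limma adjusted p = 0.659). In WT roots its sign turned with the scaling, at -0.13 once scaled by median of ratios and -0.063 once quantile normalized. In OE roots it moved with single libraries, to 0.39 without OE, low N, replicate 2, where it passed (limma adjusted p = 0.039), and to 0.090 without OE, low N, replicate 1 (limma adjusted p = 0.569). It was 0.022 by median of ratios and 0.052 once quantile normalized.

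CesA7-A averaged 7.94 ± 2.35 FPKM at low N and 3.91 ± 0.495 FPKM at normal N in OE roots, a ratio of 2.03. In WT roots it averaged 13.6 ± 2.04 FPKM at low N and 8.21 ± 0.814 FPKM at normal N, a ratio of 1.66. Every low-N library of CesA7-A lay above every normal-N library of the same genotype. CesA7-B averaged 9.28 ± 1.93 FPKM at low N and 4.37 ± 0.346 FPKM at normal N in OE roots, a ratio of 2.12. In WT roots it averaged 13.8 ± 1.51 FPKM at low N and 8.37 ± 0.415 FPKM at normal N, a ratio of 1.65. The CesA7 copies thus stood at similar ratios in each genotype. CesA8-A averaged 4.48 ± 0.711 FPKM at low N and 2.01 ± 0.392 FPKM at normal N in OE roots, a ratio of 2.23. In WT roots it averaged 6.66 ± 0.79 FPKM at low N and 4.43 ± 0.531 FPKM at normal N, a ratio of 1.50. The lowest low-N library of CesA8-A, in OE roots, was still above the highest normal-N library of that genotype. CesA8-B averaged 8.31 ± 1.80 FPKM at low N and 3.51 ± 0.386 FPKM at normal N in OE roots, a ratio of 2.37. In WT roots it averaged 13.95 ± 2.82 FPKM at low N and 7.76 ± 0.861 FPKM at normal N, a ratio of 1.80. CesA8-B had the highest ratio of the 5 in both genotypes. For all 4 genes the low-N and normal-N libraries of a genotype lay apart, as they did in this direction for 48.9% of the tested genes in OE roots and 48.1% in WT roots.

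In OE roots 4 of the 5 were called higher at low N, with log2 differences from 0.83 ± 0.169 (SE) for CesA7-A to 1.03 ± 0.154 for CesA8-B and limma adjusted p from 1.6e-05 to 0.000771. In WT roots the same 4 were called higher, with log2 differences from 0.49 ± 0.132 for CesA8-A to 0.76 ± 0.154 for CesA8-B and limma adjusted p from 0.000308 to 0.00471. A call of higher is common in these comparisons: 46.9% of all tested genes had one in OE roots and 45.6% in WT roots. The median of the 5 was 0.86 in OE roots and 0.65 in WT roots, beside 0.22 in OE roots and 0.19 in WT roots over all tested genes. Set against that shift of all genes, the differences of the 4 genes were 0.62 to 0.82 in OE roots and 0.30 to 0.56 in WT roots, and those of CesA4 0.039 in OE roots and -0.12 in WT roots. The share of higher calls over all genes was 67.2% in OE roots and 66.3% in WT roots as deposited. It was 49.9% in OE roots and 49.6% in WT roots by median of ratios, and 49.1% in OE roots and 52.2% in WT roots once quantile normalized. Under those 2 scalings the 4 genes stayed called in OE roots, with 0.52 to 0.73 once quantile normalized. In WT roots CesA8-A was lost, at 0.30 by median of ratios (limma adjusted p = 0.0539) and 0.26 once quantile normalized (limma adjusted p = 0.0919).

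The groups of each gene took nearly the same order. WT at low N had the highest mean and OE at normal N the lowest for all 5. Between them, OE at low N and WT at normal N were neighbours whose libraries overlapped for every gene. For CesA7-A, CesA7-B, CesA8-A and CesA8-B the mean of OE at low N was 0.967, 1.11, 1.01 and 1.07 times that of WT at normal N. For CesA4 it was 0.721 times. WT at low N and WT at normal N also overlapped for CesA4, as did OE at low N and OE at normal N. The widest span was that of CesA8-B, with a mean in WT at low N 3.98 times that in OE at normal N, and the narrowest that of CesA4, with 1.80 times. Like the ratios of OE at low N to WT at normal N, these spans compare groups that differ in both genotype and N supply. They use FPKM as deposited, and N supply cannot be told apart from a batch of libraries. By mean level within a group, 71.6% to 80.5% of all IDs lay below CesA4 and 43.1% to 56.0% below CesA8-A.

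A ratio of FPKM of 2 genes within a library does not depend on how that library was scaled. The tests used log2 ratios of FPKM + 1, which do depend on the scaling and the pseudocount to some extent. They were run by exact two-sided permutation of labels within the other factor, with 400 arrangements and 0.005 as the smallest p it can give. The 8 ratios to CesA4 were added after the values had been seen, and p-values were adjusted over all 12 ratio tests. Under other settings only the unadjusted exact p is given. Against CesA4, each of the other 4 genes was higher at low N than at normal N in every library. CesA7-A over CesA4 was 0.531 to 0.622 in OE roots at low N and 0.346 to 0.381 in OE roots at normal N; in WT roots it was 0.681 to 0.722 at low N and 0.421 to 0.463 at normal N. CesA8-B over CesA4 was 0.619 to 0.640 in OE roots at low N and 0.320 to 0.327 at normal N; in WT roots it was 0.660 to 0.737 at low N and 0.373 to 0.449 at normal N. The mean N effect on the log2 ratio, on the log2(FPKM + 1) scale, was 0.58 for CesA7-A, 0.62 for CesA7-B, 0.51 for CesA8-A and 0.73 for CesA8-B, each with an exact p of 0.005, the smallest possible, and an adjusted p of 0.00857. Here too N supply cannot be told apart from a batch of libraries.

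**Figure D3:**
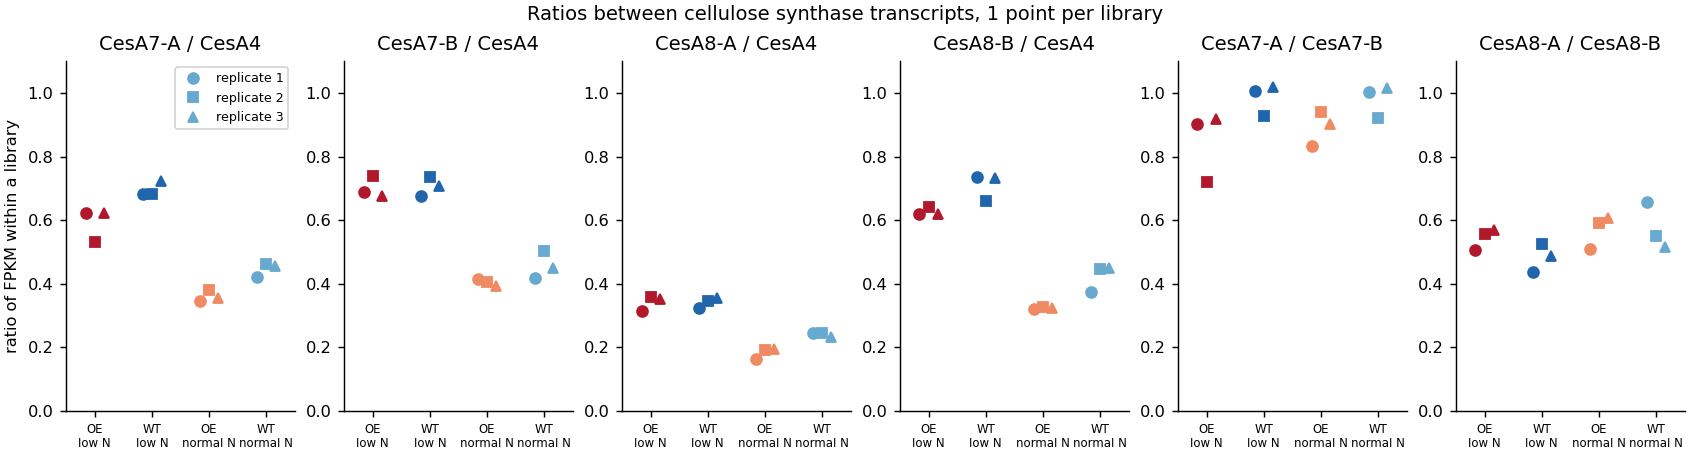
Ratio of FPKM between 2 genes within a library, by group, with 1 point per library; the first 4 panels have CesA4 as denominator, the last 2 compare the copies of CesA7 and of CesA8. In the first 4 panels every low-N library lies above every normal-N library, for example 0.619 to 0.737 against 0.320 to 0.449 for CesA8-B.

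By genotype, CesA7-A and CesA8-B were lower relative to CesA4 in OE than in WT roots, each by 0.20 on the log2 scale (effect -0.20, exact p = 0.005, adjusted p = 0.00857). CesA7-B and CesA8-A did not pass, with effects of -0.044 (exact p = 0.4) and -0.045 (exact p = 0.435). With a pseudocount of 0.1 these were -0.088 (exact p = 0.125) and -0.18 (exact p = 0.055). CesA8-A over CesA4 averaged 0.341 ± 0.0238 in OE and 0.342 ± 0.0169 in WT roots at low N, and 0.185 ± 0.0183 in OE and 0.241 ± 0.00806 in WT roots at normal N (SD, n = 3). Its OE and WT libraries thus overlapped at low N and lay apart at normal N; whether the genotype effect on this ratio differs between N supplies was not tested. Within the CesA7 pair, CesA7-A over CesA7-B averaged 0.846 ± 0.111 in OE and 0.984 ± 0.0494 in WT roots at low N, and 0.892 ± 0.0542 in OE and 0.979 ± 0.0504 in WT roots at normal N (SD, n = 3). At normal N the libraries of this ratio overlapped, at 0.834 to 0.941 in OE and 0.921 to 1.01 in WT roots. At low N they lay apart, with OE replicate 2 at 0.719, OE replicates 1 and 3 at 0.903 and 0.917, and WT at 0.927 to 1.02. The genotype effect on this ratio was -0.15 on the log2 scale (exact p = 0.015, adjusted p = 0.0225). It no longer passed without WT, low N, replicate 1 (-0.14, exact p = 0.05) or replicate 3 (-0.14, exact p = 0.055), where 200 arrangements remain, nor with libraries taken in pairs by replicate number (-0.15, exact p = 0.0625, 64 arrangements). The N effect on that pair was -0.041 (exact p = 0.565).

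Within the CesA8 pair, CesA8-A was the weaker copy in every library. The ratio of CesA8-A over CesA8-B averaged 0.544 ± 0.0326 in OE and 0.483 ± 0.0435 in WT roots at low N, and 0.570 ± 0.0521 in OE and 0.574 ± 0.0733 in WT roots at normal N. Its N effect was -0.22 on the log2(FPKM + 1) scale (exact p = 0.005, adjusted p = 0.00857). With a pseudocount of 0.1 it was -0.16 and no longer passed (exact p = 0.065). The genotype effect was 0.15 (exact p = 0.06, adjusted p = 0.08). Its unadjusted p fell under 0.05 without WT, normal N, replicate 1 (0.19, exact p = 0.02) and without WT, low N, replicate 2 (0.18, exact p = 0.045). With a pseudocount of 0.1 the genotype effect was 0.095 (exact p = 0.255). The copies of a pair are close relatives and how the authors' counting treated fragments that match both is not stated in the labels, so the split within a pair is less certain than the level of the pair.

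Summed over the 5 genes, the level was 43.3 ± 9.80 FPKM in OE and 67.5 ± 10.04 FPKM in WT roots at low N, and 24.6 ± 2.72 FPKM in OE and 47.2 ± 4.64 FPKM in WT roots at normal N (SD, n = 3). CesA4 held 30.7% ± 0.144 of that sum in OE and 29.0% ± 0.463 in WT roots at low N, and 44.0% ± 0.599 in OE and 39.0% ± 1.58 in WT roots at normal N. In OE roots at low N the CesA4 share varied little between libraries whose summed levels differed. They ran from 34.9 to 54.1 FPKM in sum and from 30.6% to 30.8% in CesA4 share. The share varied most in WT roots at normal N, from 37.6% to 40.7%, over sums of 41.9 to 50.2 FPKM. The CesA7 pair held 39.7% ± 0.774 in OE and 40.6% ± 0.824 in WT roots at low N, against 33.6% ± 0.582 in OE and 35.2% ± 1.08 in WT roots at normal N. The CesA8 pair held 29.7% ± 0.888 in OE and 30.4% ± 0.894 in WT roots at low N, against 22.4% ± 0.711 in OE and 25.8% ± 0.634 in WT roots at normal N. The sums and shares are descriptions without a test.

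**Figure D4:**
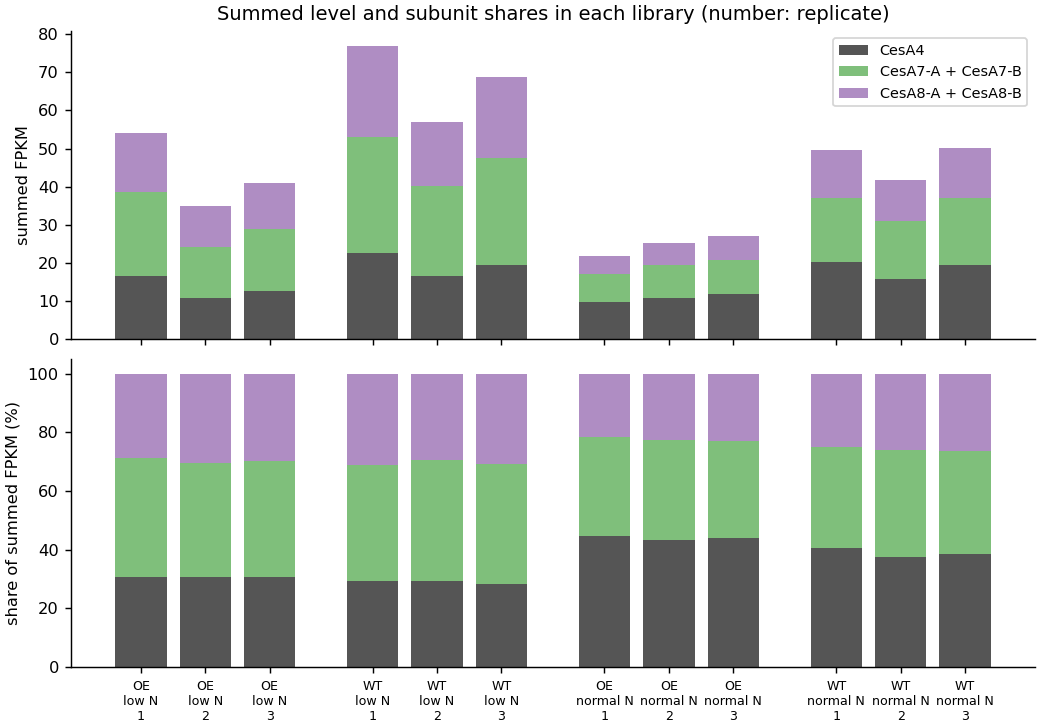
Stacked FPKM of CesA4, the CesA7 pair and the CesA8 pair in each library (top) and the same as shares of the summed FPKM (bottom). The sums run from 21.7 FPKM in an OE library at normal N to 76.9 FPKM in a WT library at low N, while the CesA4 share is 28.4% to 30.8% in all low-N libraries and 37.6% to 44.6% in all normal-N libraries.

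Within a group, the 5 genes ranked the libraries much alike. The library with the lowest level was the same for all 5 genes in each group: replicate 2 in OE and in WT at low N, replicate 1 in OE at normal N and replicate 2 in WT at normal N. At low N, replicate 1 was the highest for all 5 genes in either genotype. At normal N, replicate 3 was the highest for all 5 genes in OE roots and for 3 of the 5 in WT roots, where replicate 1 was the highest for CesA4 and CesA8-A. Of 16696 other genes that averaged 5 FPKM or more, 154 (0.922%) had their lowest value in these same 4 libraries. This was noticed after the values had been seen and is a description.

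Likeness of profiles was measured as the root mean square difference over the 12 libraries between log2(FPKM + 1) values, each gene centred on its own mean. From the mean profile of the 5 genes, CesA8-A lay 0.0702 away, CesA7-B 0.0839, CesA7-A 0.0871, CesA8-B 0.139 and CesA4 0.252. Each of the 5 enters that mean, which lowers its own distance, so these are not comparable with distances of other IDs. CesA4 was thus the least alike of the 5. Ranked by distance from CesA7-A among 16700 genes, CesA8-B came first, CesA7-B second, CesA8-A at rank 4 and CesA4 at rank 249. CesA4 stood at rank 1361 from CesA7-B, 371 from CesA8-A and 1027 from CesA8-B. The ID nearest to CesA7-B was none of the 5 but Potri.010G125200. CesA8-B stood at rank 8 from CesA8-A, and CesA8-A at rank 9 from CesA8-B. From CesA4, the nearest of the other 4 was CesA8-A at rank 501, and CesA8-B stood at rank 5617. CesA8-A itself had a mean under the 5 FPKM asked of other genes and was kept as a member.

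The 5 other IDs nearest to the mean profile lay 0.129 to 0.162 away, where the median of the 16696 others was 0.512. The nearest, Potri.010G125200, averaged 8.64 ± 1.39 FPKM in OE and 13.4 ± 1.82 FPKM in WT roots at low N, and 4.25 ± 0.196 FPKM in OE and 8.14 ± 0.596 FPKM in WT roots at normal N (SD, n = 3), levels close to those of CesA7-B. Potri.010G141600 was the most abundant of these IDs, at 42.4 ± 10.8 FPKM in OE and 81.8 ± 14.3 FPKM in WT roots at low N, and 25.4 ± 1.47 FPKM in OE and 49.1 ± 2.04 FPKM in WT roots at normal N. Potri.004G162800, Potri.019G048800 and Potri.016G144100 were the other 3, with distances of 0.142, 0.153 and 0.162. The table gives no names for these IDs, and likeness is given as a description, with no p.

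**Figure D5:**
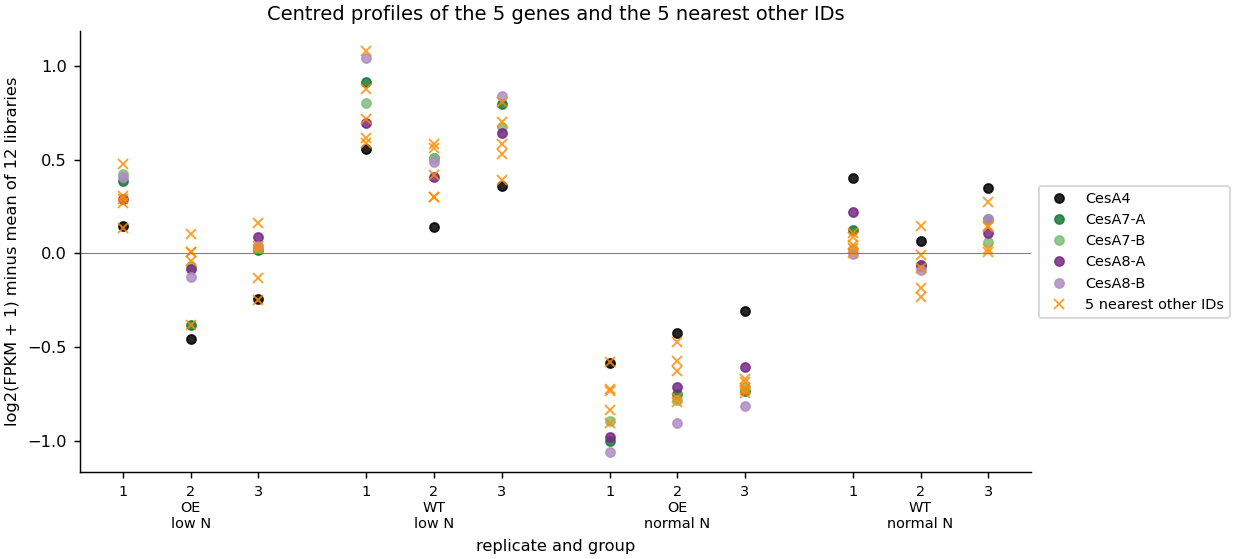
Log2(FPKM + 1) minus the mean of the 12 libraries for the 5 cellulose synthase genes (filled points) and the 5 other IDs nearest to their mean profile (crosses), by group and replicate number. CesA4 (black) lies below the other 4 genes in every low-N library and above them in every normal-N library.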

How the data were processed

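RNA-seq of 12 root libraries was used, in 4 groups of 3. The values are FPKM computed by the authors and deposited as 1 table of 34699 IDs with 1 column per library. TopHat and DESeq2 appear in the submitters' processing notes with neither version nor role. Genome build, annotation and FPKM program: not given in the sources used here. Columns were assigned by the short label in each sample's description, which left 0 unassigned columns. The 24570 genes that reached 1 FPKM in 3 or more libraries were tested as log2(FPKM + 1) by limma 3.58.1 in R 4.3.3 (trend and robust eBayes, 1 mean per group, 8 residual degrees of freedom). P-values were adjusted over all tested genes by Benjamini-Hochberg. The procedure was tested on simulated data, for OE against WT at normal N only. Of 100 log2 changes of size 0.5, 57% were recovered, and of 100 of size 1, 94%. There were 5 false calls among the unchanged genes of the 24570. The changed genes were drawn from the better expressed ones and were far fewer than the 5851 called in the data. Noise was drawn independently for each value, so recovery and false calls in the data may differ. The interaction was not simulated. The 5 genes, the naming rule (the 5 other IDs nearest in profile) and the tests were chosen with earlier results of these data known. No source used here annotates the IDs of other wall genes, which were therefore not analysed here, and no sequences are shown. The limma p-values set a difference against the spread between these libraries, and the exact p-values count arrangements of their labels. Neither covers variation between transgenic lines, whose number is not stated.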

Additional observations from a re-analysis of the deposited data

How the results depend on the processing

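The other settings were a pseudocount of 0.1, no filter, a 5 FPKM filter, scaling by median of ratios, quantile normalization, weights per library, plain eBayes, only the 2 groups compared, a replicate block, and each library left out. Of 520 values of member log2 fold changes under them, 510 kept their direction and their side of the threshold. In comparisons of 2 groups, filters, plain eBayes, a replicate block, the 2 groups alone and libraries left out elsewhere cannot change the estimate. Such settings bear only on the threshold, so the count says little about direction under them. Reversals touched estimates that had not passed: CesA4, low N against normal N in WT roots (-0.13 by median of ratios, -0.063 once quantile normalized, -0.025 to 0.18 over libraries left out), the CesA7-A interaction (-0.014 to 0.37 over libraries left out) and the N effect on CesA7-A over CesA7-B (-0.069 to 0.0074 over libraries left out). The count of all genes called for OE against WT at normal N was 5851, 11246 with weights per library and 3706 to 6554 over libraries left out, lowest without OE, normal N, replicate 3. The genotype effect ran from -0.18 to -0.10 for CesA7-A over CesA7-B and from 0.12 to 0.19 for CesA8-A over CesA8-B over libraries left out. With a pseudocount of 0.1 these CesA8 ratios had an N effect of -0.16 and a genotype effect of 0.095. The causes were not tested. The count of members called for OE against WT at low N was 5. It was 4 without WT, low N, replicate 1 and without OE, low N, replicate 2. For low N against normal N in WT roots it was 4, and 3 by median of ratios and once quantile normalized. All counts of members called were within 1.5 times of the main count, a bound that the loss of 1 gene does not break here.

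Replicate numbers did not pair the libraries: deviations of same-numbered libraries correlated at -0.127 to 0.0942 over 18 pairs, and the same number correlated best in 9 of 36 cases. A replicate block gave 5424 calls for OE against WT at normal N and 11541 for the same at low N, and changed the call of no member. It left CesA7-A over CesA7-B at -0.15 with an exact p of 0.0625.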
